A study of Mus musculus with 10 samples.

Results

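Foxp3+ regulatory T cells were compared with conventional CD4 T cells that lack CD25, both taken from untreated female mice homozygous for a Foxp3(gfp) allele. In this allele green fluorescent protein (GFP) is fused to Foxp3, and fluorescence therefore marks the cells that hold Foxp3. The pair comprised 2 of the 10 arrays of the series, 1 per group, and was chosen by the sample labels alone. The regulatory sample, called GFPfoxp3 here, held GFP+ CD4+ cells, and the conventional sample, called CD25neg, held GFP- CD25- CD4+ cells. Both came from mice aged 6 to 8 weeks, backcrossed to C57BL/6 for 8 to 10 generations from 129/Sv, and from lymph node and spleen combined. The labels give no further gate, so that CD25neg cells may mix naive and antigen-experienced cells, and they do not say how many mice were used or whether untreated mice were injected with vehicle. Foxp3 is made as the fusion protein in every Foxp3+ cell of this mouse line, and no array held regulatory cells with the unmodified gene from untreated mice.

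Levels on the 5 other arrays of sorted cells are given beside the pair. CD25pos were GFP- CD25+ CD4+ cells of the same mouse line, and GFPko were GFP+ CD4+ cells of Foxp3(gfpko/wt) females, backcrossed for 5 generations, in which GFP replaces Foxp3 and X inactivation leaves each cell with 1 active allele. IL-2 treated counterparts of CD25pos, GFPko and GFPfoxp3 came from mice injected 4 times over 24 h (50 ng per g each time), whose cells were isolated 30 min later. The remaining 3 arrays held transduced cells and are not described here.

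Regulatory T cells restrain the responses of other lymphocytes, and their loss leads to fatal autoimmunity in mice and in humans. The transcription factor Foxp3 is needed for their function. They carry CD25, the alpha chain of the high-affinity IL-2 receptor, and depend on IL-2 made by conventional cells, since they make little of it themselves. Known means of suppression include the inhibitory receptor CTLA-4, the cytokines IL-10 and IL-35, activation of TGF-beta, production of adenosine, and transfer of cAMP into target cells.

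Values are log2 expression of Affymetrix probe sets, and a difference is GFPfoxp3 minus CD25neg on that scale, so that 1 stands for 2-fold. With 1 array on each side there was no replicate error and no test could be made, and "higher" and "lower" describe these arrays. The array medians over all probe sets were 3.06 in CD25neg and 3.05 in GFPfoxp3, and a gene below its array's median was taken as not above background. Its fold is then given as "at least", the higher array against the median of the lower one. For Actb, control probe sets at the 3′ end read higher than those at the 5′ end by a gap that widens as RNA or its amplified copy is shortened. This gap was 3.29 in CD25neg and 3.07 in GFPfoxp3, and that of Gapdh was 6.49 and 5.55. Different probe sets of a gene were the only repeat measurement within the pair. In 1924 genes with 2 probe sets bright on both arrays, the differences read by the 2 probe sets lay a median of 0.31 apart, with a 95th percentile of 0.96.

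Of 11938 genes measured, 873 (7.31%) were higher by 2-fold or more in GFPfoxp3 cells, and 433 (3.63%) were lower by as much. These shares are the background for every count of list members below. Large differences lay mostly on the higher side, with 125 genes at least 8-fold higher and 31 at least 8-fold lower. The median difference over all genes was -0.01. Because the samples are bulk RNA, more cells with a transcript and more transcript per cell cannot be told apart.

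**Figure D1:**
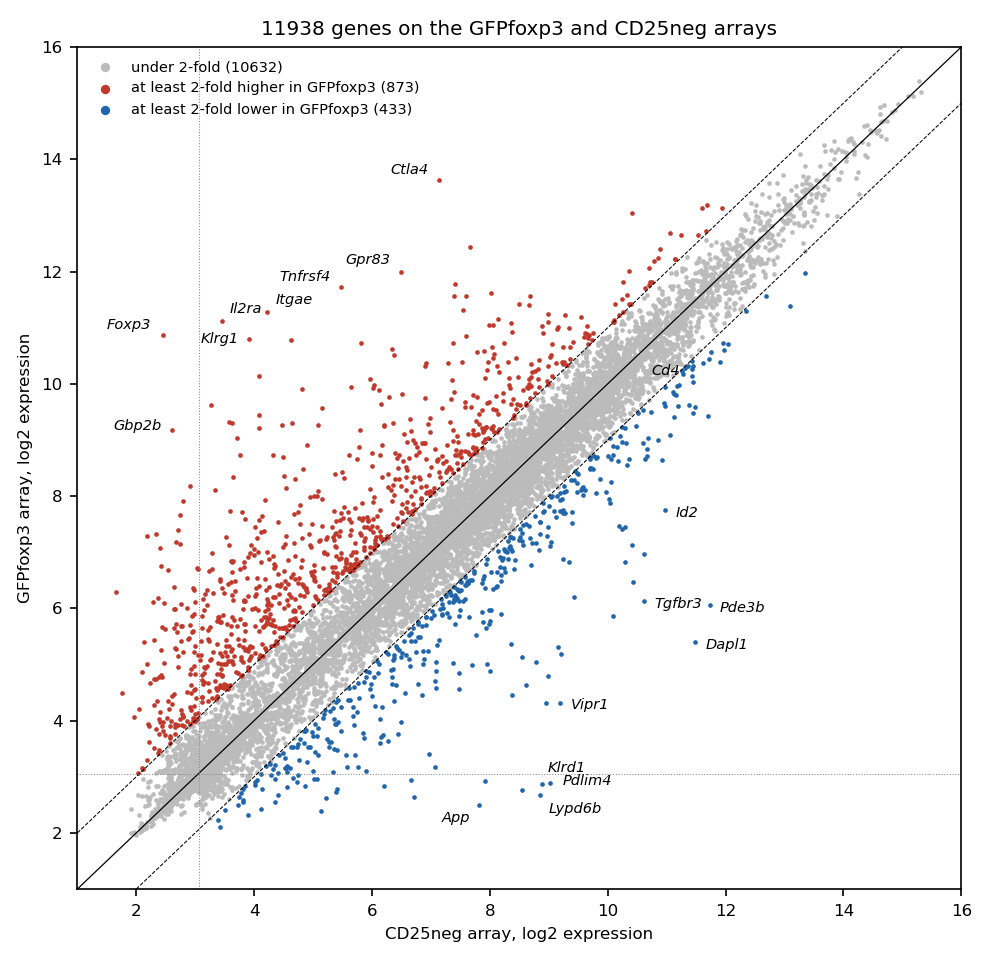
Log2 expression of 11938 genes on the CD25neg array (x axis) and the GFPfoxp3 array (y axis), with 1 point per gene, the line of equality, dashed lines at 2-fold and dotted lines at the array medians. The 873 genes at least 2-fold higher in GFPfoxp3 cells spread farther from the line than the 433 lower ones, while Cd4 lies close to it.

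The genes used in the sort matched the labels. Foxp3 was at 2.45 in CD25neg, below that array's median, and at 10.86 in GFPfoxp3, at least 224-fold higher. It was at 3.90 in CD25pos and 8.33 in GFPko cells, in which GFP replaces Foxp3, so its level alone does not report the protein. Cd4 differed by -0.14, at 10.60 and 10.46. The T cell receptor chains Cd3d, Cd3e and Cd3g differed by 0.00, -0.09 and -0.01, all from levels of 11.75 or more. Il2ra, which encodes CD25, was excluded by the sort of CD25neg cells and was not used in the sort of GFPfoxp3 cells. It was at 3.45 in CD25neg, 7.91 in CD25pos, 9.58 in GFPko and 11.11 in GFPfoxp3 cells, and its other probe set gave a difference of 4.29 against 7.66 for the brighter one.

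Besides Foxp3 and Il2ra, the 15 largest increases among genes well above the median included Itgae, Klrg1, Ctla4 and Gbp2b. Itgae, an integrin chain (CD103) that holds T cells to epithelium through E-cadherin, was at 4.23 in CD25neg and 11.28 in GFPfoxp3 cells, 133-fold higher, and its other probe set gave a difference of 6.02. It was at 5.82 in CD25pos and 7.04 in GFPko cells, so that GFPfoxp3 cells stood apart from all of these. Klrg1, an inhibitory lectin-type receptor, went from 3.91 to 10.79 (118-fold), with 4.86 in CD25pos and 3.53 in GFPko cells. Ctla4, the inhibitory receptor that competes with CD28 for its ligands, was already at 7.14 in CD25neg cells and reached 13.63, a 89.6-fold difference. It lay in between in CD25pos (10.50) and GFPko (12.09) cells. Gbp2b, an interferon-inducible GTPase, followed another order, with 2.60 in CD25neg, 2.61 in CD25pos, 8.76 in GFPko and 9.17 in GFPfoxp3 cells. It was therefore at background in both GFP- samples and at least 69.3-fold higher in GFPfoxp3 than in CD25neg cells.

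Among the others of the 15, Coro2a, a coronin, had a log2 difference of 6.35, from 3.27 in CD25neg cells, near background. Tnfrsf4, the costimulatory receptor OX40, differed by 6.25. Nrn1, neuritin, first known from neurons, differed by 6.17, and Cd83, a surface protein of activated lymphocytes, by 6.05. Penk, the precursor of enkephalin peptides, differed by 5.76, and Dusp4, a phosphatase of MAP kinases, by 5.67. Gpr83, a G protein-coupled receptor long used as a regulatory T cell marker, differed by 5.49, and its other probe set by 5.85. Socs2, a feedback inhibitor of cytokine signalling, differed by 5.36 in its brightest probe set, although the 6 probe sets of that gene ran from -0.02 to 5.36. Ccr6, the receptor for CCL20, differed by 5.33. In CD25pos cells all 15 lay between the levels of CD25neg and GFPfoxp3. GFPko cells lay between them for 12, and above GFPfoxp3 for Socs2 (10.05 against 9.45) and Ccr6 (10.01 against 9.04). For Klrg1 they lay below CD25neg (3.53 against 3.91), but both levels were dim, so this order means little. The same holds for Gbp2b in CD25pos cells, since it was below the array median there and in CD25neg cells.

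The 15 largest decreases included 7 genes that were read well in CD25neg cells and lay below the array median in GFPfoxp3 cells. Lypd6b, a membrane-anchored protein of the Ly6 family, was at 8.85 in CD25neg, 8.16 in CD25pos, 6.32 in GFPko and 2.68 in GFPfoxp3, a difference of at least 55.7-fold from CD25neg. Pdlim4, a cytoskeletal adaptor, went from 9.03 to 2.89 (at least 62.8-fold lower) and was also at background in GFPko cells (2.92). Klrd1, the CD94 receptor chain best known from NK cells, was at 8.88 in CD25neg and 8.91 in CD25pos cells, against 3.04 in GFPko and 2.86 in GFPfoxp3 cells, at least 56.6-fold lower. Atp8b4, a lipid-flipping ATPase, went from 8.55 to 2.76 (at least 45.1-fold lower). All 4 were thus clear in both GFP- samples, and of them Lypd6b alone was well above background in untreated GFPko cells, where Atp8b4 was at 3.77.

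Dapl1 and Pde3b stayed above background in GFPfoxp3 cells. Dapl1, a gene of naive T cells, was at 11.48 in CD25neg and 5.40 in GFPfoxp3 cells, 68.0-fold lower, with 9.15 in CD25pos and 7.65 in GFPko cells. Pde3b, a phosphodiesterase that breaks down cAMP, was among the brighter genes of CD25neg cells at 11.73 and lay at 6.06 in GFPfoxp3 cells, 51.1-fold lower. It was nearly as high in CD25pos cells (11.62) and still at 10.22 in GFPko cells. Vipr1, a receptor for vasoactive intestinal peptide that couples to cAMP production, went from 9.19 to 4.31 (29.4-fold lower). Tgfbr3, a co-receptor of the TGF-beta family, went from 10.61 to 6.13 (22.4-fold lower), and Epas1, a hypoxia-inducible factor, from 8.99 to 4.79 (18.3-fold lower).

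The rest of the 15 were the amyloid precursor gene App (at least 27.1-fold lower), the monocarboxylate carrier Slc16a5 (at least 29.2-fold lower), Tmie, a gene known from hair cells of the inner ear (-4.64), Tdrp (-4.23), Mctp2 (at least 12.6-fold lower) and Pxylp1 (-4.02). App was uncertain, since its 2 probe sets gave -5.31 and -1.23. GFPko cells lay between CD25neg and GFPfoxp3 for all 15 decreases, and CD25pos cells for 14, the exception being Klrd1, which was as high in CD25pos as in CD25neg cells. For Pdlim4, App and Klrd1, however, GFPko levels were below the array median, as were GFPfoxp3 levels, so their order means little. The other array of Foxp3+ sorted cells, taken after IL-2, had its widest gap to GFPfoxp3 among these 30 genes at Socs2, 0.69 log2 units.

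**Figure D2:**
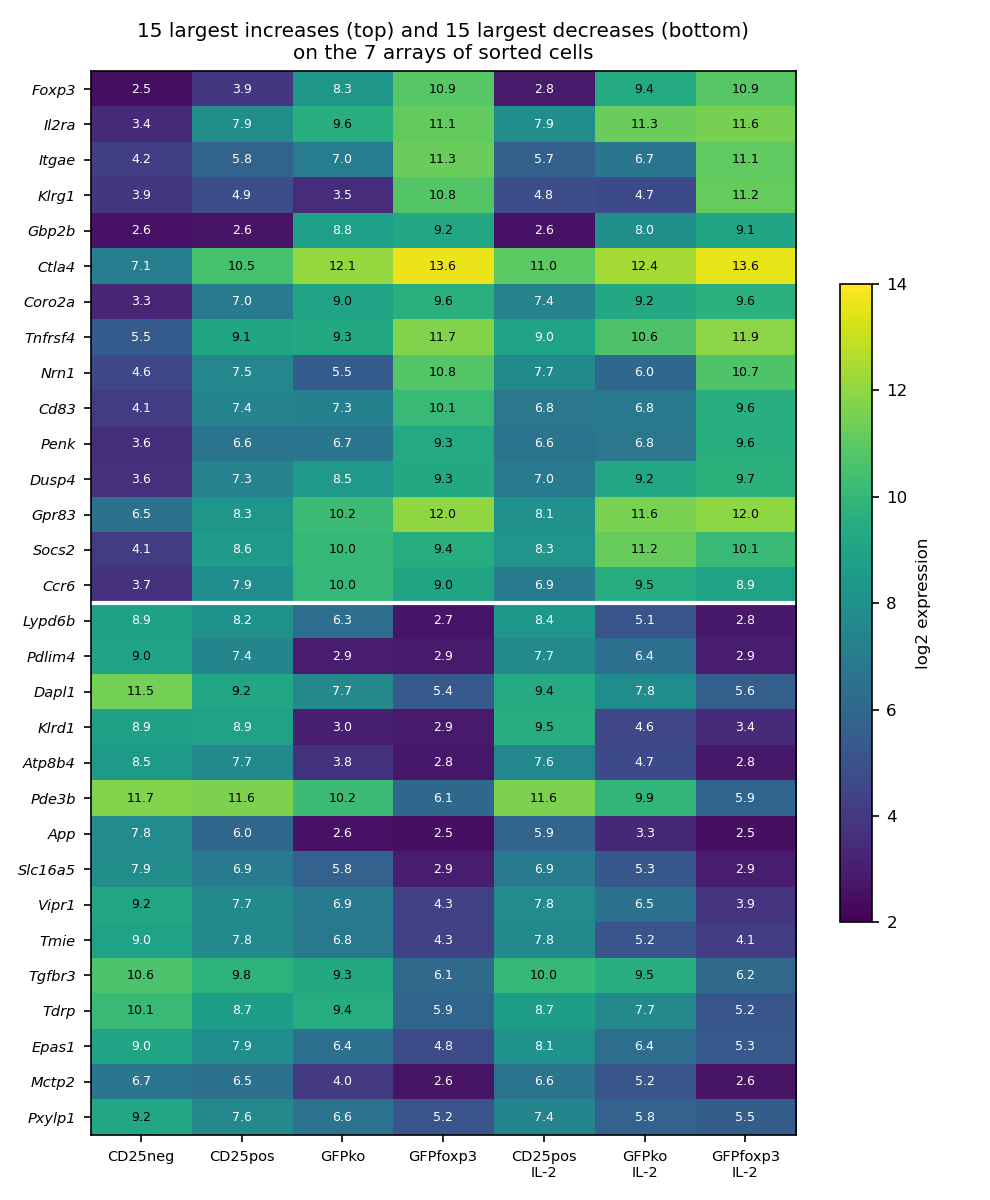
Log2 expression of the 15 largest increases (upper block) and 15 largest decreases (lower block) on the 7 arrays of sorted cells, 1 column per array and 1 row per gene, with the value printed in each cell. GFPfoxp3 cells with and without IL-2 look alike, CD25pos cells lie below CD25neg for 14 of the 15 genes of the lower block, and GFPko cells lie in between for most genes.

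Promoter sequences were read for these 30 genes where RefSeq windows of build GRCm38.p6 held them, which was so for 16. In the 250 bases before each start, 6 short motifs were searched on both strands. They were the forkhead motif TGTTTAC, the STAT motif TTCNNNGAA, the RUNX motif TGTGGTT, the cAMP response element TGACGTC, the TCF/LEF motif CTTTGAT and the AP-1 motif TGANTCA. Matches of different motifs overlapped in 13 of 12305 windows. Only 4 windows of the 30 genes held a match. They are printed here 5′ to 3′ along the gene, with each match in capitals, because they are the windows in which a factor of these families could be sought beside the largest differences.
Foxp3, chrX:7580233-7580482, plus strand, 1 STAT match: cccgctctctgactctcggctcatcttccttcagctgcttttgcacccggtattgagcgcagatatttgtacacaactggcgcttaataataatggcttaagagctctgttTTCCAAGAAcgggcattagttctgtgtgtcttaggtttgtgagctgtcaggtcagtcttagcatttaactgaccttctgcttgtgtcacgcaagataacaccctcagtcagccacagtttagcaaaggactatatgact
Ccr6, chr17:8235793-8236042, plus strand, 2 STAT matches: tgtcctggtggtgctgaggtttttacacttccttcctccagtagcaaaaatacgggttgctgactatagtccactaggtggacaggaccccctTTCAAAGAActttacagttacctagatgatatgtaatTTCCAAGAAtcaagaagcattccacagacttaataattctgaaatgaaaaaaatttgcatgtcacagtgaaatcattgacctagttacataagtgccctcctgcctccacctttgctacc
Dapl1, chr2:59484403-59484652, plus strand, 1 forkhead match: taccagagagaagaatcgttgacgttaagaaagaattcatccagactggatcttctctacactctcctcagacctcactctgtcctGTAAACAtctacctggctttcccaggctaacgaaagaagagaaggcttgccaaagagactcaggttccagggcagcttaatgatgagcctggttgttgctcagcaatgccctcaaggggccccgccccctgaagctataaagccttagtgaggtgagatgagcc
Atp8b4, chr2:126491554-126491803, minus strand, 1 AP-1 match: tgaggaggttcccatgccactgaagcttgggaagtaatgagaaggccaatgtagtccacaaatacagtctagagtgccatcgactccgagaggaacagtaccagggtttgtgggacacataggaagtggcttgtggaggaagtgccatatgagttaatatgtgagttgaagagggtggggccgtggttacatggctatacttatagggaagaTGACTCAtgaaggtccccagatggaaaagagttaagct

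The STAT match of Foxp3 ended 131 bases before the start, those of Ccr6 149 and 112 bases, the forkhead match of Dapl1 158 bases and the AP-1 match of Atp8b4 32 bases. Over the 9688 measured genes with a promoter window, 7.17% held the STAT motif, against 9.17% of 687 genes called higher and 8.09% of 346 called lower. The forkhead motif was in 2.88% of all, 3.93% of the higher and 2.89% of the lower genes. AP-1 stood at 5.51%, 7.57% and 8.67%, and RUNX at 4.0%, 4.37% and 2.89%. TCF/LEF, the motif of the Lef1 family, was in 2.82% of all, 1.89% of the higher and 4.62% of the lower genes. The cAMP response element was in 5.25% of all genes, 2.33% of the higher and 2.89% of the lower ones. Such matches describe letters in a short window and not bound sites.

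Genes known as characteristic of regulatory T cells stood highest of the 42 lists examined. All 30 measured members were at least 2-fold higher in GFPfoxp3 cells, against 7.31% of all genes, with a median difference of 4.68 and a range of 2.38 to 8.41. With the mean of all probe sets, the regulatory T cell genes median log2 difference was 3.97. Such lists were drawn up from comparisons of this kind, so the count describes the identity of the sorted cells and is not independent evidence. Besides those named above, Tnfrsf9, the costimulatory receptor 4-1BB, went from 5.81 to 10.73, and Plagl1, a zinc finger factor, differed by 5.11. The smallest difference was that of Ccr8, which was below the median in CD25neg (2.39) and dim in GFPfoxp3 (4.77), at least 3.28-fold higher. The median level of this list was 4.73 in CD25neg, 7.65 in CD25pos, 8.34 in GFPko and 10.43 in GFPfoxp3 cells.

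Of 14 measured suppressive molecules 10 were higher and 1 lower, with a median of 3.68. Ctla4, Il10, Ebi3, Entpd1, Nt5e, Fgl2, Gzmb and Nrp1 are also in the list of regulatory T cell genes. This count is therefore largely the same result and is not independent evidence. Gzmb, the protease granzyme B, went from 2.92 to 8.19, at least 35.0-fold higher, and was at background in GFPko cells (2.85). Il10, an anti-inflammatory cytokine, went from 2.74 to 7.14, at least 16.9-fold higher, and GFPko cells had 7.11, the same level as cells with the protein. Ebi3, a subunit of IL-35, differed by 4.70, while Il12a, the partner subunit, was at background on both arrays (2.48 and 2.44). Both enzymes that turn extracellular ATP into adenosine were higher, Entpd1 (CD39) by 3.11 and Nt5e (CD73) from 8.02 to 11.62. Fgl2, a secreted fibrinogen-like protein, differed by 4.40. Prf1, the pore-forming perforin, was the member that was lower (-1.92), and Tgfb1 (0.28), Lag3 (0.65) and Pcyt1a (0.87) were within 2-fold. Pcyt1a, though on the list, encodes an enzyme of phospholipid synthesis and is not known as a suppressive molecule.

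**Figure D3:**
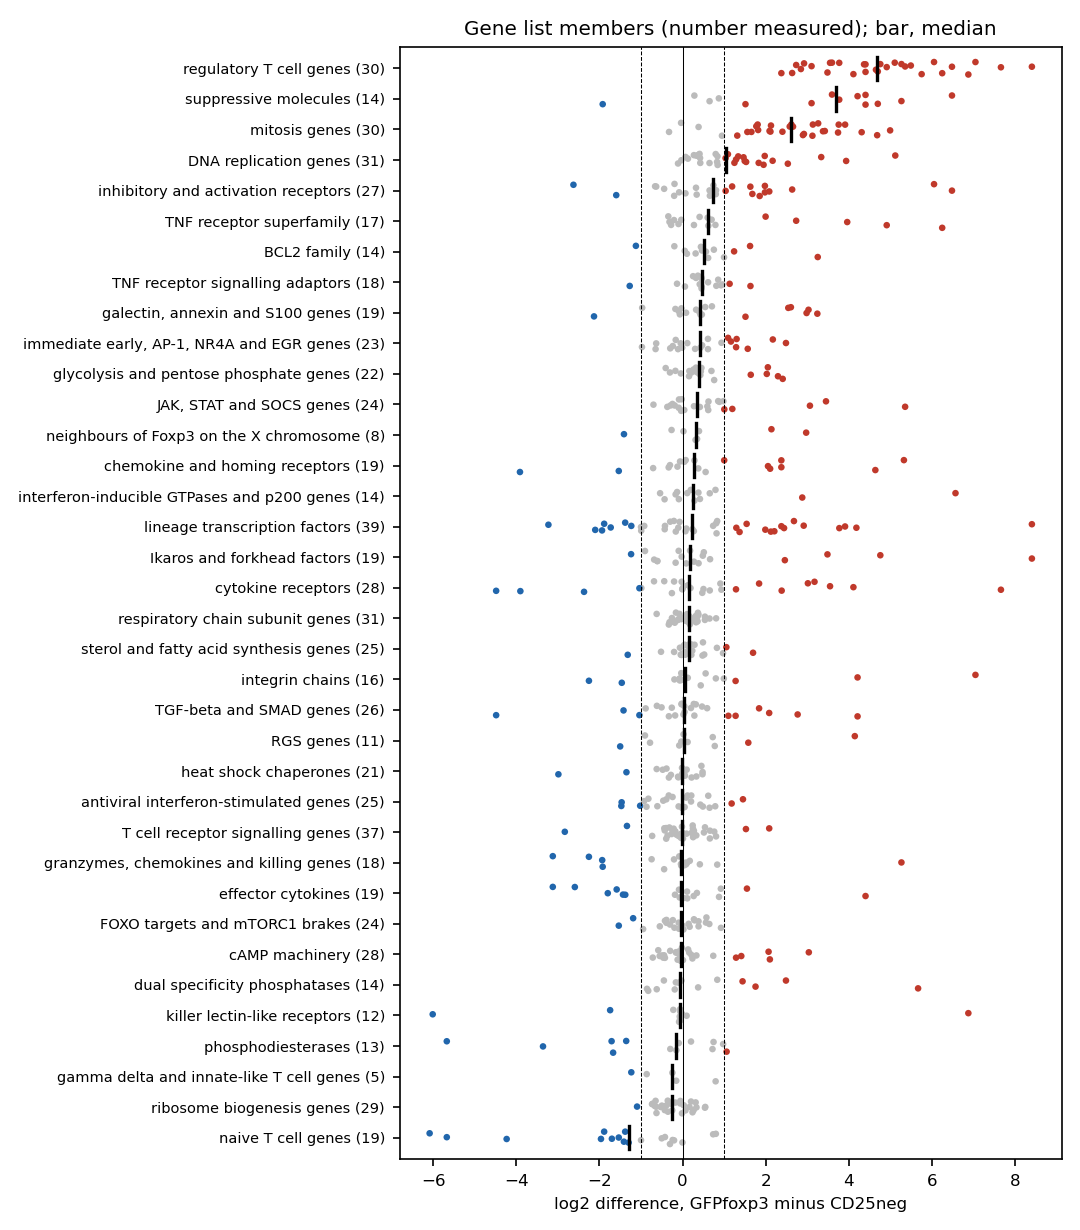
Log2 difference (GFPfoxp3 minus CD25neg, x axis) of the measured members of 36 gene lists, 1 point per gene, with red for at least 2-fold higher, blue for at least 2-fold lower, grey for smaller differences and a black bar for the list median. Regulatory, suppressive, mitosis and DNA replication genes have medians above 1, naive T cell genes a median of -1.30, and most other lists lie near 0 with a few members far from it.

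Some genes of IL-2 receptor signalling were higher. Il2rb, the beta chain of the receptor, went from 5.97 to 10.08, and its other probe set gave 2.60. Cish, a feedback inhibitor that IL-2 induces through STAT5, went from 6.92 to 10.37, and Pim1, a kinase that the same pathway induces, from 7.99 to 11.05. In the list of JAK, STAT and SOCS genes 5 of 24 were higher and 0 lower, the others being Socs2, the receptor-bound kinase Jak3 (1.20) and Pias3 (1.01). The signal transducers themselves were within 2-fold, with Stat5a at 0.98, Stat5b at 0.60 and Stat3 at 0.42, and so were the feedback inhibitors Socs1 (0.27, below the median on both arrays), Socs3 (0.62) and Ptpn2 (-0.29).

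Among 28 measured genes of the cytokine receptor list 8 were higher and 4 lower. The 8 include Csf1 (2.39), which encodes a secreted growth factor and no receptor. Beyond the IL-2 receptor chains, Il1r2, a decoy receptor for IL-1 (3.55), Il12rb1, a chain shared by the IL-12 and IL-23 receptors (3.18), and Il10ra (3.02) were higher. On the lower side stood Il1rl2, a receptor for IL-36, which went from 7.07 to 3.17, and Il18r1, which went from 9.24 to 6.87. Il7r, the IL-7 receptor chain that survival of resting T cells depends on, was among the brighter genes on both arrays, at 12.95 and 12.94. The list of TGF-beta genes showed the receptor chains going both ways, Tgfbr1 higher (1.84), Tgfbr2 lower (-1.04) and Tgfbr3 lower as given above. In that list 6 of 26 genes were higher and 3 lower. The integrin Itgb8, which activates latent TGF-beta, went from 4.49 to 8.70, and Itgav, its partner chain, from 8.65 to 9.93. Smad1 (-1.42), a signal transducer used mainly by bone morphogenetic proteins, completed the lower side, while Bmpr2, a receptor of those proteins, was higher (2.77, with other probe sets down to -0.03).

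In the TNF receptor superfamily 5 of 17 measured genes were higher and 0 lower. Tnfrsf4 and Tnfrsf9 were the most different, followed by Tnfrsf1b, the receptor TNFR2 (3.96, with another probe set at -0.03). Tnfrsf18, which encodes the receptor GITR, was already at 8.36 in CD25neg cells and went to 11.09. Tnfrsf13b, the receptor TACI, went from 7.58 to 9.58. Of 18 signalling adaptors and NF-kappaB genes downstream of these receptors Nfkb2 (1.63) and Relb (1.13), subunits of the alternative NF-kappaB pathway, were higher, and Map3k14, the kinase that starts that pathway, was lower (-1.27).

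Inhibitory and activation receptors held 11 higher and 2 lower of 27, with a median of 0.74. Icos, a costimulator of the CD28 family, was bright in both samples, at 10.41 and 13.05, and Pdcd1, which encodes PD-1, went from 6.45 to 8.31. Among the ligands of CTLA-4, Cd80 was at background in CD25neg cells (2.94) and at least 3.63-fold higher, and Cd86 was higher by 1.68 from 4.16. Havcr2, which encodes TIM-3, differed by 1.63, and Lag3 was at background in both samples (2.03 and 2.68). Crtam, an adhesion receptor of activated cytotoxic cells, was at least 5.09-fold lower, and Lair1, an inhibitory collagen receptor, was lower too (-1.60).

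Receptors that direct migration differed one by one. Of 19 measured, 7 were higher and 2 lower. Gpr15, a homing receptor of the large intestine, went from 1.65 to 6.29, at least 9.40-fold higher. Ccr2 (2.38), Cxcr5 (2.11), the receptor for B cell follicles, and Ccr9 (2.06), that of the small intestine, were higher. Ccr7, which guides T cells into lymph nodes, was lower (-1.54), and Cxcr6, a receptor of tissue-resident and effector cells, went from 8.38 to 4.46. In CD25pos cells Cxcr6 was higher than in either, at 10.75. Integrin chains had 3 higher and 2 lower of 16, the higher being Itgae, Itgb8 and Itgav. The beta chains Itgb3 (-1.46) and Itgb5 (-2.25) were lower, while Itgb7, the partner of Itgae, was bright on both arrays at 12.37 and 12.93.

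Transcription factors differed in both directions, with 14 higher and 7 lower of 39 lineage factors. The Ikaros factors, a family of zinc finger proteins of lymphocytes, are given first. Ikzf2 (Helios) went from 7.67 to 12.43 and Ikzf4 (Eos) from 6.16 to 9.65, and Ikzf3 (Aiolos) differed by 2.46. Ikzf1 (Ikaros) differed by -0.90, within 2-fold, so that members of this family did not all go one way. Other probe sets gave 0.91 for Ikzf2 and -0.04 for Ikzf3. Prdm1 (Blimp-1), a factor of effector differentiation, went from 6.01 to 9.93, Irf4 from 6.11 to 9.89 and the aryl hydrocarbon receptor Ahr from 5.08 to 9.27. Irf4 had another probe set at 0.06.

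Maf (1.99), Batf (2.21), Hopx (2.68), Rora (1.54) and Gata3 (1.29) were also higher, as was Nfil3, by at least 7.15-fold from background. On the lower side Id2, an inhibitor of E proteins, went from 10.98 to 7.75, while its level was 11.96 in CD25pos and 10.44 in GFPko cells. Tbx21 (T-bet), the factor of Th1 cells, went from 8.10 to 6.37 and Eomes from 6.13 to 4.03, against 10.04 and 9.41 in CD25pos cells. Eomes had another probe set at -0.23. Of the forkhead genes listed, Foxp3 was higher and Foxn2 lower (-1.24), and Foxp1 (-0.68) and Foxo1 (-0.09) were within 2-fold.

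Genes of naive T cells were lower in 10 of 19 and higher in 0, against 3.63% of all genes lower, with a median of -1.30. Members were chosen with earlier results of these data known, so this share is not independent evidence. Lef1, a factor of the Wnt pathway (-1.89), Satb1, a chromatin organizer (-1.38), Igfbp4, a binding protein of insulin-like growth factors (-1.70), and Actn1, an actin crosslinker (-1.96), were lower from levels above 11. These are smaller differences than those of Dapl1, Pde3b and Tdrp, which belong to the same list and were already given among the largest decreases. Id3 (0.74) and Itga6 (0.80) had positive differences. The median level of the list was 11.25 in CD25neg, 10.01 in CD25pos, 10.22 in GFPko and 9.66 in GFPfoxp3 cells. FOXO targets and brakes of mTORC1, some of which are also naive T cell genes, were largely within 2-fold, with 0 higher and 2 lower of 24, namely Ccr7 and Rictor (-1.19), a subunit of mTORC2.

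**Figure D4:**
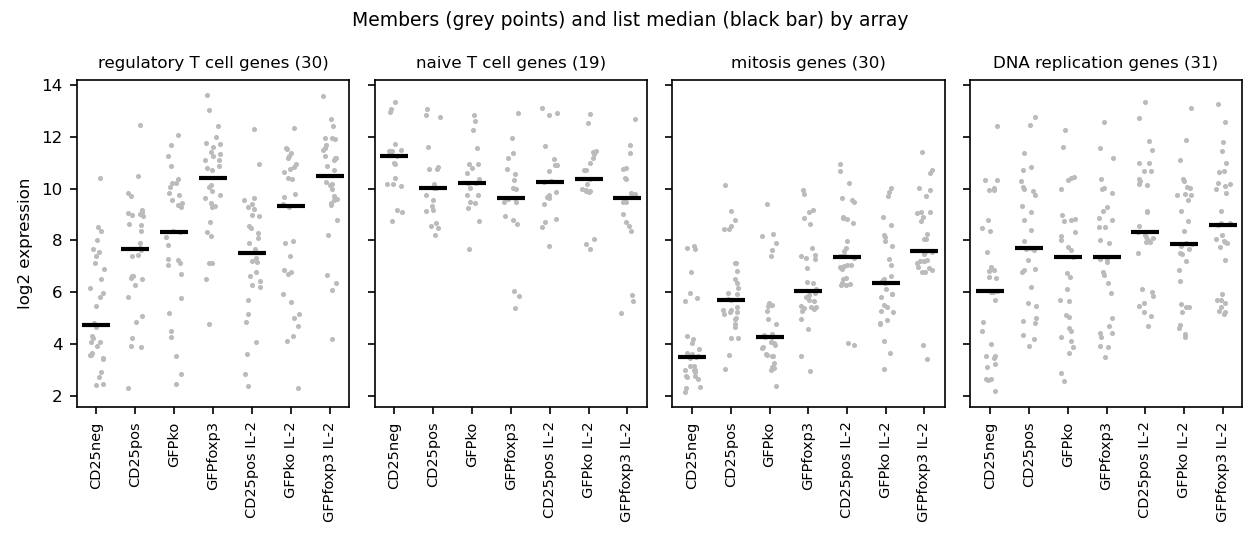
Log2 expression (y axis) of the members of 4 gene lists on the 7 arrays of sorted cells (x axis), 1 grey point per gene, with the list median as a black bar. The median of regulatory T cell genes runs from 4.73 in CD25neg to 10.43 in GFPfoxp3 cells, that of naive genes from 11.25 to 9.66, and CD25neg has the lowest median of mitosis and of DNA replication genes.

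Phosphodiesterases, which end cyclic nucleotide signals, held 5 lower and 1 higher of 13 measured. Pde3b was by far the most different. Pde5a, which is specific for cGMP, differed by -3.36 and read 2.84 on the GFPfoxp3 array, under its median, which makes it at least 8.86-fold lower. Its other probe set gave -4.09. It was also at background in CD25pos (2.94) and GFPko (2.96) cells. The cAMP-specific enzymes Pde4b (-1.71), Pde4d (-1.36) and Pde7a (-1.67) were lower too, although the 5 probe sets of Pde4b ran up to 0.05 and the 7 of Pde7a up to 0.02. Pde2a, which cGMP activates to break down cAMP, was higher (1.06, and 1.55 in its other probe set).

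In the list of cAMP machinery 5 of 28 were higher and 0 lower. Both receptors for prostaglandin E2 that raise cAMP were among them, Ptger2 from 6.53 to 8.63 and Ptger4 from 10.78 to 12.20. Crem, a cAMP-responsive transcription factor, went from 6.44 to 8.51, with probe sets from -0.04 to 2.41. Pkig, an inhibitor of protein kinase A, was higher (1.29). Prkar1b, a regulatory subunit of that kinase, was at background in CD25neg cells (2.68) and at least 6.31-fold higher in its brightest probe set. It differed by -0.0083 without multi-match probe sets, so its direction is not settled. These are probe sets whose name endings (_a_at, _s_at or _x_at) mark a match to several transcripts, of the same gene or of others. No adenylyl cyclase reached 2-fold by its brightest probe set, and the brightest of them, Adcy7, differed by -0.49, with another of its probe sets at -1.20.

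Cytokine genes lay on both sides. Of 19 effector cytokine genes 6 were lower and 2 higher. Fasl, the death ligand, went from 8.01 to 4.89, and Il21, a helper cytokine, from 5.21 to background at 2.62, at least 4.46-fold lower, with another probe set at -0.05. Ifng went from 6.35 to 4.92. Il2 was dim in CD25neg cells (4.36) and lay under the array median in GFPfoxp3 (2.56), at least 2.47-fold lower, and Il4 went from 3.90 to 2.32, at least 1.80-fold lower and so under 2-fold by its bound. Il17a (3.20 and 3.22) and Il13 (2.91 and 2.83) were near or below the array median on both arrays. Besides Il10, Lta, lymphotoxin alpha, was higher (1.55).

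Among 18 killing genes Gzmb stood alone on the higher side, and Fasl, Gzmk (-2.25), Gzma (-1.93) and Prf1 were lower. The granzymes thus did not go together. Killer lectin-like receptors showed the same division, with Klrg1 as the 1 higher and Klrd1 and Klrc1 as the 2 lower of 12. Klrc1, the NKG2A chain that pairs with CD94, went from 4.56 to 2.81, at least 2.83-fold lower. The remaining 9 differed by -0.22 to 0.10, most of them close to the array medians.

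Genes of cell division were higher in GFPfoxp3 cells. Of 30 mitosis genes 26 were higher and 0 lower, with a median of 2.60. With the mean of all probe sets of each gene, the mitosis genes median log2 difference was 1.58. Of 31 DNA replication genes 16 were higher and 0 lower, with a median of 1.04. Mki67, the proliferation marker Ki-67, went from 5.64 to 9.95. Ccnb2, a mitotic cyclin, went from background at 2.33 to 7.33, at least 19.3-fold higher, and Tk1, thymidine kinase, from 2.18 to 7.30, at least 18.9-fold higher. Rrm2, a subunit of ribonucleotide reductase, went from 6.04 to 9.98. Top2a (3.38), which untangles DNA, is uncertain, since its other probe set gave -0.04. Of the replicative helicase Mcm5 (1.25) was higher, while Mcm2, Mcm3, Mcm4, Mcm6 and Mcm7 were within 2-fold by their brightest probe sets (-0.11 to 0.84), with other probe sets of Mcm3, Mcm6 and Mcm7 as high as 1.58, 1.58 and 1.44.

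CD25neg cells had the lowest median of mitosis genes on the sorted arrays (3.50). It was 5.71 in CD25pos, 4.27 in GFPko and 6.04 in GFPfoxp3 cells, and 7.35, 6.37 and 7.57 in these populations after IL-2. DNA replication genes had medians of 6.04 in CD25neg, 7.70 in CD25pos, 7.35 in GFPko and 7.36 in GFPfoxp3 cells, so that GFPfoxp3 cells were close to GFPko and below CD25pos cells. Ribosome biogenesis genes did not follow, with 0 higher and 1 lower of 29 (Rrp12, -1.09).

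In the central metabolism 5 of 22 glycolysis and pentose phosphate genes were higher and 0 lower. The glucose transporter Slc2a3 went from 10.36 to 12.00, the hexokinase Hk2 from 3.96 to 5.99, Tpi1, triosephosphate isomerase, from 7.94 to 10.24 and Eno3, an enolase, from 6.62 to 8.68. The aldolase Aldoc (2.41) is unsettled, because it differed by -0.08 without multi-match probe sets. Slc2a1 (-0.04) and Ldha (0.26) were within 2-fold. Sterol and fatty acid synthesis had 2 higher (Mvd, 1.70, and Elovl6, 1.05) and 1 lower (Lss, -1.32) of 25. Respiratory chain subunits had 0 higher and 0 lower of 31, with differences of -0.62 to 0.81.

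Immediate early genes, which T cells switch on within minutes of stimulation or handling, held 7 higher and 0 lower of 23. Dusp1 went from 8.25 to 10.73, Fos from 7.93 to 10.10 and Jun from 6.34 to 7.91. Nr4a1 (1.16) and Nr4a3 (1.29), nuclear receptors induced by T cell receptor signals, were higher, while Egr1 (0.43), Egr2 (0.61) and Egr3 (-0.65), induced by the same signals, were within 2-fold. Among MAP kinase phosphatases 4 of 14 were higher, Dusp4, Dusp1, Dusp5 (1.44) and Dusp16 (1.76). Dusp16 differed by -0.04 without multi-match probe sets. Regulators of G protein signalling went both ways, with Rgs1 at 6.38 and 10.52, Rgs16 higher (1.58) and Rgs2 lower (-1.50), of 11 measured.

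Of 37 genes of T cell receptor signalling 2 were higher and 2 lower, shares of 5.41% each beside 7.31% and 3.63% of all genes. Themis, an adaptor needed in thymic selection, went from 10.25 to 7.41, and Pag1, a membrane adaptor that recruits the kinase Csk, from 12.05 to 10.71. Ubash3b (2.09), a phosphatase that damps receptor signals, and Sla (1.53), an adaptor that does so too, were higher.

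In the BCL2 family Pmaip1 (Noxa, 3.25), Bid (1.63) and Bnip3 (1.24), which promote cell death, were higher, and Bik (-1.12), of the same function, was lower, of 14 measured. The protective members Bcl2 (0.11) and Mcl1 (0.31) were within 2-fold and bright on both arrays. Galectins, annexins and S100 proteins, many of them abundant in memory and effector T cells, had 6 higher and 1 lower of 19. Lgals3 (3.24), Anxa2 (3.03), Anxa4 (2.99), S100a6 (2.61), S100a4 (2.55) and Lgals1 (1.51) were higher and Anxa1 lower (-2.13).

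The list of interferon-inducible GTPases and p200 genes had 2 higher of 14, the GTPases Gbp2b and Gbp3, the latter going from 8.68 to 11.56. The other 12 differed by -0.54 to 0.79, although 9 of the 14 had positive differences. Among the p200 genes Mndal, bright on both arrays, differed by -0.17. Ifi202b (-0.13) was below the median on both arrays and Ifi204 (-0.09) near it, so the signs of these 2 mean little. Antiviral genes had 2 higher and 3 lower of 25. Oas2 (-1.47), Oasl2 (-1.47) and Oas3 (-1.02), of the oligoadenylate synthetase family, were lower, and Isg20 (1.45), an RNA-degrading nuclease, and Eif2ak2 (1.18), a sensor of double-stranded RNA, were higher. Among 21 heat shock chaperones 2 were lower, Hspa1b, which went from 8.36 to 5.37, and Dnajc3 (-1.35). The 3 probe sets of Hspa1b gave -3.33 to -2.99, and the neighbouring copy Hspa1a was near background in both samples (3.13 and 2.65).

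Of 8 measured genes near Foxp3 on the X chromosome 2 were higher (25%) and 1 lower (12.5%), beside 7.31% and 3.63% of all genes. The list is small and held no gene between Praf2, 9 protein-coding genes away, and Gata1. An effect of position was not tested. Plp2, a membrane protein 5 protein-coding genes away, went from 8.89 to 11.03, with 10.24 in CD25pos and 10.63 in GFPko cells. Gata1, the erythroid factor, which is 22 protein-coding genes away, went from 4.75 to 7.72, with 5.02 in CD25pos and 6.42 in GFPko cells. Ccdc22, the next gene after Foxp3, was lower (-1.41, and -0.03 in its other probe set). Ppp1r3f, on the other side of Foxp3, differed by 0.35, and 4 more measured neighbours differed by -0.26 to 0.40.

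Markers of other cell types were looked at because bulk sorted samples can hold a few of them. Of 9 measured B cell markers Cd79b (3.06 and 6.71, at least 12.6-fold) and Cd74 (3.99 and 6.96) were higher in GFPfoxp3 cells and 0 lower. The defining markers Ms4a1 (3.31 and 3.42), Ebf1 (3.25 and 3.19) and Fcer2a (2.69 and 2.66) were near the array medians on both arrays, and so were the class II genes H2-Eb1 (2.48 and 2.56) and H2-Ab1 (2.88 and 2.79). Ighm was bright in both, at 11.52 and 12.18. The summed level of the list was 11.6 in CD25neg and 12.3 in GFPfoxp3 cells on the log2 scale.

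Of 9 myeloid markers Cybb, a subunit of the phagocyte oxidase, was the only one that differed 2-fold (5.50 and 8.43), and the summed level was 8.27 and 9.54. Lyz2 (3.25 and 3.28), Csf1r (2.28 and 2.16) and Tyrobp (2.13 and 2.08) lay near or below the medians. Of the 9, 4 were below the medians on both arrays, and brighter members not named here carried part of the summed level. Of 7 CD8 and NK cell markers 3 were lower, namely Klrd1, Eomes and Gzma, and their summed level was 9.73 in CD25neg and 7.62 in GFPfoxp3 cells. Cd8a was close to the median on both arrays (3.16 and 3.13), and Cd8b1 was at 5.05 and 4.26. Among 6 plasma cell markers Prdm1 and Irf4 were higher and Jchain lower (3.81 and 2.55, at least 1.69-fold and so under 2-fold by its bound), with Sdc1 (3.25 and 3.21) near the medians. Their summed level was 10.2 and 11.9. Of 3 erythroid genes Hba-a2 was higher (4.14 and 5.36), at summed levels of 5.64 and 6.03. T cell markers had 1 higher of 6, Cd2 (1.19), and 0 lower, at summed levels of 14.55 and 14.89. Genes of gamma delta and innate-like T cells had 0 higher and 1 lower of 5, Zbtb16 (3.73 and 2.50), which did not reach 2-fold by its bound. The part of such cells in the differences was not tested.

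A pair of arrays that shares no array with this one was available in GFPfoxp3 and CD25pos cells, both after IL-2. It differs in treatment and in the CD25 of the cells without Foxp3, and so it is no replicate. There, 564 genes (4.72% of all) were at least 2-fold higher with Foxp3 and 290 (2.43%) lower. Of the 873 genes higher in the untreated pair 403 were also higher in that pair, which is 46.2% of the former and 71.5% of the latter. Of the 433 lower genes 155 were also lower, 35.8% of the former and 53.4% of the latter. The sign alone was the same for 90.3% of the higher genes, where 45.6% of all genes were positive, and for 89.4% of the lower genes, where 54.4% of all were negative. Klrg1 (6.33), Gbp2b (6.51), Klrd1 (-6.04) and Pde3b (-5.73) differed about as much there as in the untreated pair. Others of the largest differences were much smaller there, with 3.67 for Il2ra, 2.62 for Ctla4, 2.29 for Coro2a, 2.96 for Tnfrsf4, 1.87 for Socs2 and 1.98 for Ccr6.

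At least 2-fold differences of opposite sign in the pairs were found in 6 genes, singled out after their values were seen. Bcat1, Il17rb, Kcnq5, Plac8 and Shmt1 were higher in GFPfoxp3 than in CD25neg cells and lower than in CD25pos cells after IL-2. Plac8, for example, was at 6.51 in CD25neg, 9.81 in GFPfoxp3, 9.86 in GFPfoxp3 after IL-2 and 11.05 in CD25pos after IL-2. Tent5a went the other way, with 9.55 in CD25neg, 8.10 in GFPfoxp3, 9.49 in GFPfoxp3 after IL-2 and 8.06 in CD25pos after IL-2. Among cell cycle genes the difference was small in that pair, at 0.48 for Mki67, 0.78 for Ccnb2 and 0.46 for Tk1, and CD25pos cells after IL-2 had levels of 10.95, 7.98 and 8.11.

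**Figure D5:**
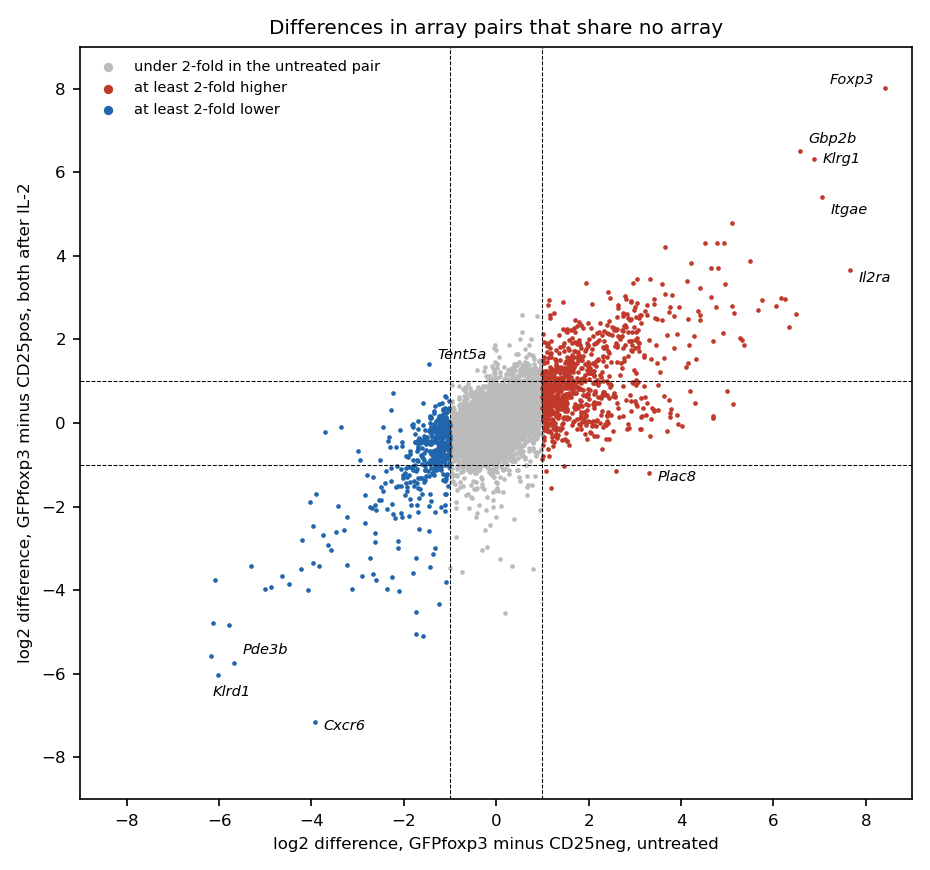
Log2 difference of each gene between untreated GFPfoxp3 and CD25neg cells (x axis) and between GFPfoxp3 and CD25pos cells after IL-2 (y axis), with dashed lines at 2-fold and colours from the untreated pair. Of the 873 genes to the right 403 lie above the upper dashed line, of the 433 to the left 155 lie below the lower one, and Plac8 and Tent5a are among the 6 in the opposite corners.

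Agreement between probe sets limits how far single genes can be read. Of 403 genes called higher that had several kept probe sets, 129 (32.0%) had every one at least 2-fold higher and 306 had every one of the same sign. Of 214 such genes called lower, 66 (30.8%) had every probe set at least 2-fold lower and 185 had the same sign in all. In 1 gene, Slc25a53, singled out for this, a probe set went 2-fold the other way (3.11 and -1.11). The gene calls rest on the brightest probe set, and many of the others were dim.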

How the data were processed

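RNA of sorted CD4 T cells was amplified in 2 rounds and hybridized to Affymetrix mouse arrays, per the labels' protocols. The authors deposited log2 values of 45101 probe sets, for which all 10 arrays were normalized as 1 set, as the series' design states. The scale was read from the values, and for the software, background correction and summary method nothing is given in the sources used here. Amplification from the 3′ end favours probe sets near it. Gene names came from the platform annotation, with symbols updated by Entrez ID to GRCm38.p6 (34754 of 34958 probe sets with 1 gene matched).

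Control probe sets and those of several genes or none were left out. A probe set was kept where at least 1 of the 10 arrays reached its own median, and each gene was read by the kept probe set with the highest mean, which gave 11938 genes. No test was made with 1 array per group. Of 897 genes in 42 lists, 6 of them marker lists, 812 were named by a probe set of 1 gene here and 730 passed the filter. Members and lists were chosen with earlier results of these data known. Named genes were the 15 largest differences each way, at least 2 log2 units above the median on the higher array, and members of the lists. Promoter sequences are from RefSeq. Counting was checked on simulated data with known shifts in bright genes, which tests the code and not the error of calls in these arrays. Alternatives are given in the closing section. Computation used Python 3.11.15, pandas 2.3.3, numpy 2.4.6 and matplotlib 3.10.9.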

Additional observations from a re-analysis of the deposited data

How the results depend on the processing

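No paired analysis was possible because each group holds 1 array. The counts of 873 higher and 433 lower genes stayed within 1.5 times under quantile normalization and centring of each array. They did so too under both other filters on dim genes and with the mean of all probe sets. The same held without multi-match probe sets (names ending in _a_at, _s_at or _x_at) and with dim values raised to the array median. The counts ran from 735 to 873 and from 343 to 528 there. At a 3-fold threshold 460 genes were higher and 153 lower. Centring gave 758 higher and 528 lower, 58.9% higher against 66.8%, and moved the median difference of all genes from -0.01 to -0.11. Of the named and listed genes called at 2-fold, 4 changed sign without multi-match probe sets: Aldoc (-0.077), Dusp16 (-0.039), Prkar1b (-0.0083) and Top2a (-0.037). The cause was not tested. Over all alternatives 4903 of 5024 gene values and 291 of 294 list medians moved by less than 1.5 times. Centring and both filters left all gene values within that limit, as they could change them little, so the pooled count is generous. With the mean of all probe sets 71 gene values moved by more and 671 did not. Without multi-match probe sets 35 moved by more, 4 called genes changed sign and 568 moved by less. Sign changes of genes within 2-fold were not counted. Foxp3 and Ccr6, each read by 1 such probe set, had no value there. With the mean of all probe sets, the mitosis genes median log2 difference was 1.58 and the regulatory T cell genes median log2 difference 3.97. The number of arrays limits precision, and differences from dim levels rest on background.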
